A study of Mus musculus with 56 samples.

Results

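The genes described here are 8 regulators of oxidative metabolism in muscle: the coactivators Ppargc1a and Ppargc1b, the nuclear receptors Ppara, Ppard and Esrra, the mitochondrial regulators Tfam and Nrf1, and the corepressor Nrip1. Their Entrez gene IDs are 19017, 170826, 19013, 19015, 26379, 21780, 18181 and 268903 in that order. They were chosen by name, as every probe set that the array annotation gives to one of them alone, and they make up 8 of the 18193 genes with a symbol and 25 of the 45037 probe sets. The samples are gastrocnemius muscles, a calf muscle, of female C57BL/6 mice, hybridised to 56 Affymetrix mouse arrays from 55 animals. In both cessation arms, which the labels call FA and RA without saying what sets them apart, mice had 12 weeks of nose-only exposure to 4% mainstream cigarette smoke and then 12 weeks of sham exposure (6 mice each). Smoke groups were exposed for 2 weeks (6 mice), 12 weeks (7 mice) or 24 weeks (6 mice), for 2 h a day on 5 days a week. Air groups had sham exposure for 2, 12 or 24 weeks (6 mice each), and 6 untreated mice were taken at week 0. The labels give no genetic alteration and no age. One mouse of the 12-week smoke group was run on 2 arrays, which were averaged.

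Levels are log2(intensity + 16), called log2 levels below, and every difference is a difference of log2 levels, where 1 is a doubling. Array medians ran between 62.5 and 77.5 intensity units. The number of arrays, not a read depth, limits the precision. The 10 skeletal muscle markers were all measured, at a mean log2 level of 13.33 to 13.53 in each mouse. On 12 arrays Glycam1, a mucin of lymph node vessels, had an intensity of 6944 to 10546, against 7.71 to 307 on the other 44 arrays. These 12 arrays include 1 FA mouse, 3 RA mice, 3 mice of the 24-week smoke group, 2 arrays of the 12-week smoke group, 1 mouse each of the 2-week and 24-week air groups and 1 untreated mouse. Results are given with all 55 mice and again for the 44 mice left without those arrays. In whole muscle, fewer cells of a type and less RNA per cell cannot be told apart.

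PGC-1 alpha (Ppargc1a) and PGC-1 beta (Ppargc1b) bind no DNA themselves. They join nuclear receptors and other factors on promoters, among them the fatty acid sensors PPAR alpha (Ppara) and PPAR delta (Ppard) and the orphan receptor ERR alpha (Esrra), and raise transcription of genes for fatty acid oxidation and respiration. NRF1 (Nrf1) drives nuclear genes of the respiratory chain, and TFAM (Tfam) packages mitochondrial DNA and starts its transcription. RIP140 (Nrip1) binds many of the same receptors with the opposite effect, and in mouse muscle its loss is known to raise oxidative genes.

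Nrip1 was the one gene of the 8 that passed the test with all mice, so the bases before its start are shown. The RefSeq table gives it 2 starts on the minus strand of chromosome 16 (GRCm38.p6). The capitals mark a pair of overlapping GC boxes (GGGCGG) in the 250 bases before the downstream of these starts.
Nrip1, chr16:76373050-76373299: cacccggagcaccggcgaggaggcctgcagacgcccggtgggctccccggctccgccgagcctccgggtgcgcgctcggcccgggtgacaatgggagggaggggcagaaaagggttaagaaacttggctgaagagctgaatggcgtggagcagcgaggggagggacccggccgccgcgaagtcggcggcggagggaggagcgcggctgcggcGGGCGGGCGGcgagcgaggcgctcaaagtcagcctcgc
Nrip1, chr16:76373828-76374077: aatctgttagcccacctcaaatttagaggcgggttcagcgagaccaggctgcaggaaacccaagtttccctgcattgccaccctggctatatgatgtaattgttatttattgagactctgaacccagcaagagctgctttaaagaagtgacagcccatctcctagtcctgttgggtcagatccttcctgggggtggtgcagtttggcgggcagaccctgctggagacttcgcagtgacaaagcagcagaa
The first run is 73.6% G and C and the second 51.2%. Windows of 250 bases before and 50 after each start were searched on both strands for 4 motifs, and the RefSeq table held 9 such windows for 7 of the 8 genes, all but Ppargc1b. GC boxes, the sequence that SP1 binds, were in 1 of the 2 Nrip1 windows, and in 35.7% of all 32851 windows in the table. Windows of Ppara, Ppard, Esrra, Tfam and Nrf1 held 2 or 3 GC boxes each, counting 1 of the 2 Nrf1 windows. The Ppargc1a window and the other Nrf1 window held none. No window of these genes held the E-box CACGTG, which clock factors bind (7.15% of all windows), the CRE TGACGTCA (1.79%) or the ERR site AAGGTCA (4.72%).

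Nrip1 was lower in both cessation arms than in mice kept in air or in smoke to 24 weeks. Its log2 level was 11.53 at the lowest, 11.69 at the median and 11.83 at the highest in FA mice. In RA mice it was 11.55, 11.79 and 11.88, in the 24-week smoke group 11.92, 12.33 and 12.38, and in the 24-week air group 11.85, 12.09 and 12.32. All 6 FA mice lay below every 24-week air mouse, and 5 of 6 RA mice did. Every mouse of both arms lay below every 24-week smoke mouse. The comparison asks whether muscle of mice that stopped smoke differs from that of mice never exposed or still exposed.

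Against 24-week air, Nrip1 fell in FA mice by 0.38 ± 0.08 (SE; 1.3-fold; limma adjusted p = 0.039; exact permutation p, two-sided, 0.0022). Of the 8 genes it was the 1 called, where 0.081% of the 12351 genes tested were called at adjusted p under 0.05, and 0.534% of them had every FA mouse below every air mouse. This call is near the threshold: the adjusted p was between 0.016 and 0.13 when each mouse was left out in turn, and the call was lost without air replicate 2, 5 or 6 or FA replicate 1, 2 or 6, where the difference was between -0.38 and -0.33. In RA mice the fall was 0.33 ± 0.08 (SE; 1.25-fold; adjusted p = 0.016; exact permutation p = 0.0043), in a comparison that called 1.76% of genes. That call was lost without air replicate 2, 5 or 6 or RA replicate 2, at differences of -0.30 to -0.28 and adjusted p of 0.052 to 0.075.

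Against 24-week smoke, Nrip1 fell in FA mice by 0.53 ± 0.08 (SE; 1.45-fold; adjusted p = 4.2e-05; exact permutation p = 0.0022), where 3.55% of genes were called and 0.632% had every FA mouse below every smoke mouse. In RA mice it fell by 0.48 ± 0.08 (SE; 1.39-fold; adjusted p = 0.00019; exact permutation p = 0.0022), where 2.34% of genes were called and 0.291% had every RA mouse below every smoke mouse. Both calls held with every mouse left out in turn, and both were lost when only the 2 groups compared were fitted (adjusted p = 0.16 for FA and 0.2 for RA, where the differences do not change). That fit also ended the calls against air (0.25 for FA and 0.11 for RA). Against the 7 mice sampled after 12 weeks of smoke, whose levels ran between 11.93 and 12.21 with a median of 12.13, the FA mice were lower by 0.41 ± 0.08 (SE; 1.33-fold; adjusted p = 0.0035; exact permutation p = 0.00058), where 0.34% of genes were called and 0.194% had all FA mice below all of the 12-week smoke mice. The 2 arms share their air and smoke mice, so these are not independent results. Between RA and FA mice Nrip1 differed by 0.06 ± 0.08 (95% interval -0.10 to 0.22, adjusted p = 0.96), and 0.0243% of genes were called.

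Without the 12 Glycam1 arrays the Nrip1 differences were -0.39 for FA against air (adjusted p = 0.03), -0.38 for RA against air (0.015), -0.60 for FA against 24-week smoke (0.00026), -0.58 for RA against 24-week smoke (0.0008) and -0.43 for FA against 12-week smoke (0.00087). These comparisons called 0.235%, 3.97%, 1.89%, 3.28% and 1.94% of genes in the same order. In each of them, every cessation mouse left lay below every mouse it was set against, as did 0.963%, 7.81%, 6.19%, 16.2% and 0.858% of genes. Fewer mice stood behind them: 5 FA, 3 RA, 3 of the 24-week smoke group and 5 of the 24-week air group.

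**Figure D1:**
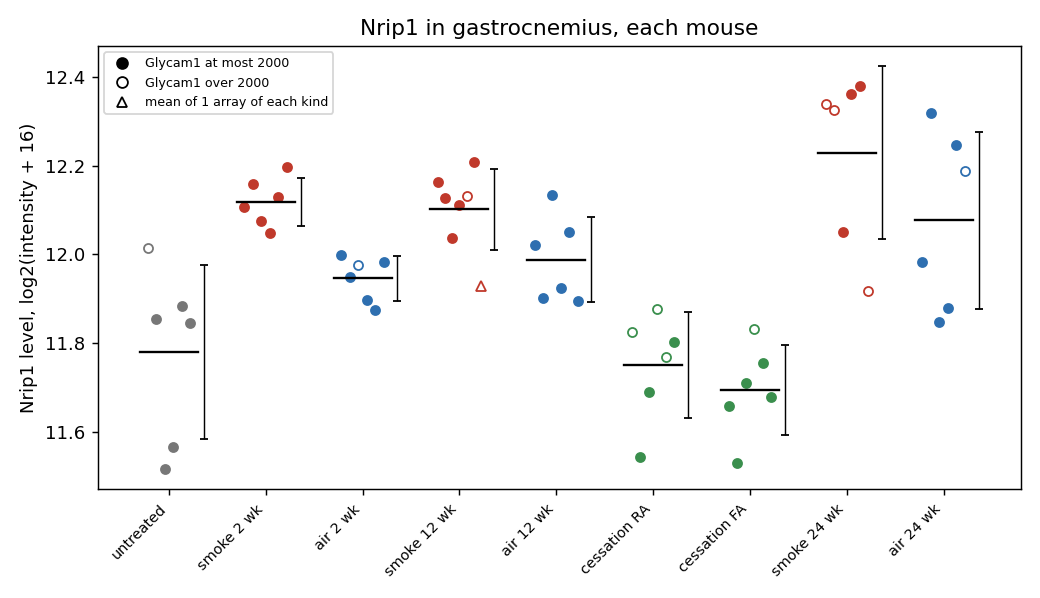
Log2 level of Nrip1 in each mouse (vertical axis, log2(intensity + 16)) by group (horizontal axis). Points are mice, open where the array had Glycam1 over 2000 intensity units and a triangle for the mouse run on 2 arrays; bars are the mean and SD. Both cessation arms lie lowest, with means of 11.69 (FA) and 11.75 (RA), and the 24-week smoke group lies highest, with a mean of 12.23.

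During exposure Nrip1 was not called. After 2 weeks it averaged 12.12 ± 0.05 in smoke mice and 11.95 ± 0.05 in air mice (SD, n = 6 each), and all 6 smoke mice lay above all 6 air mice, as 0.194% of genes did in that direction. The difference was 0.17 ± 0.08 (SE; adjusted p = 1; exact permutation p = 0.0022), in a comparison that called 0% of genes. At 12 weeks it was 0.11 ± 0.08, with 2 of 7 smoke mice above every air mouse, and at 24 weeks 0.15 ± 0.08 (adjusted p = 0.22), with 4 of 6 above. Averaged over the 3 times, a contrast that called 0.0324% of genes, smoke minus air was 0.15 ± 0.04 (SE; unadjusted p = 0.002; adjusted p = 0.35), and 0.17 without the Glycam1 arrays (adjusted p = 0.14). Smoke mice thus had the higher mean at each time, by less than the test across all genes called. The smoke effect at 24 weeks did not differ from that at 2 weeks by enough to be called for any of the 8 genes (0.0324% of all genes called).

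Untreated mice had Nrip1 levels of 11.52, 11.85 and 12.01 (lowest, median, highest), which overlap those of both cessation arms. The 2-week air group was 0.17 ± 0.08 above them (adjusted p = 0.62), and 0.21 above them without the Glycam1 arrays (adjusted p = 0.2). In order of group means Nrip1 was lowest in FA, then RA, untreated, 2-week air, 12-week air, 24-week air, 12-week smoke, 2-week smoke and 24-week smoke. No neighbours in that order differed by more than the SD of both.

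The 6 probe sets of Nrip1 were all lower in each arm than in 24-week air and in 24-week smoke. In a test of all 34945 probe sets with 1 symbol, 4 of the 6 were called for RA against air: 1454295_at at -1.19 (adjusted p = 0.002), 1432603_at at -1.11 (0.039), 1418469_at at -0.65 (0.017) and 1434384_at, the one used above, at -0.33 (0.033), where 0.684% of probe sets were called. For FA against air none was called, at differences of -0.67 to -0.38 and adjusted p of 0.085 to 0.73, where 0.00858% of probe sets were called. The probe sets 1418469_at, 1434384_at and 1449089_at were called for both arms against 24-week smoke, at -0.55, -0.53 and -0.71 in FA mice and -0.60, -0.48 and -0.66 in RA mice, where 1.27% and 0.91% of probe sets were called. The pair 1432603_at and 1454295_at, annotated to the same sequence record, correlated at r = 0.92 over the 44 mice without Glycam1 arrays and at 0.39 to 0.55 with the others, which correlated at 0.71 to 0.94 among themselves. That pair fell to the largest extent in RA mice against air and was not called for FA against smoke (-0.17 and -0.25). In 24-week smoke against air the probe sets split in direction: 1449089_at was at 0.23 and 1434384_at at 0.15, and the other 4 were between -0.50 and -0.05, none of them called (0.083% of probe sets called).

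**Figure D2:**
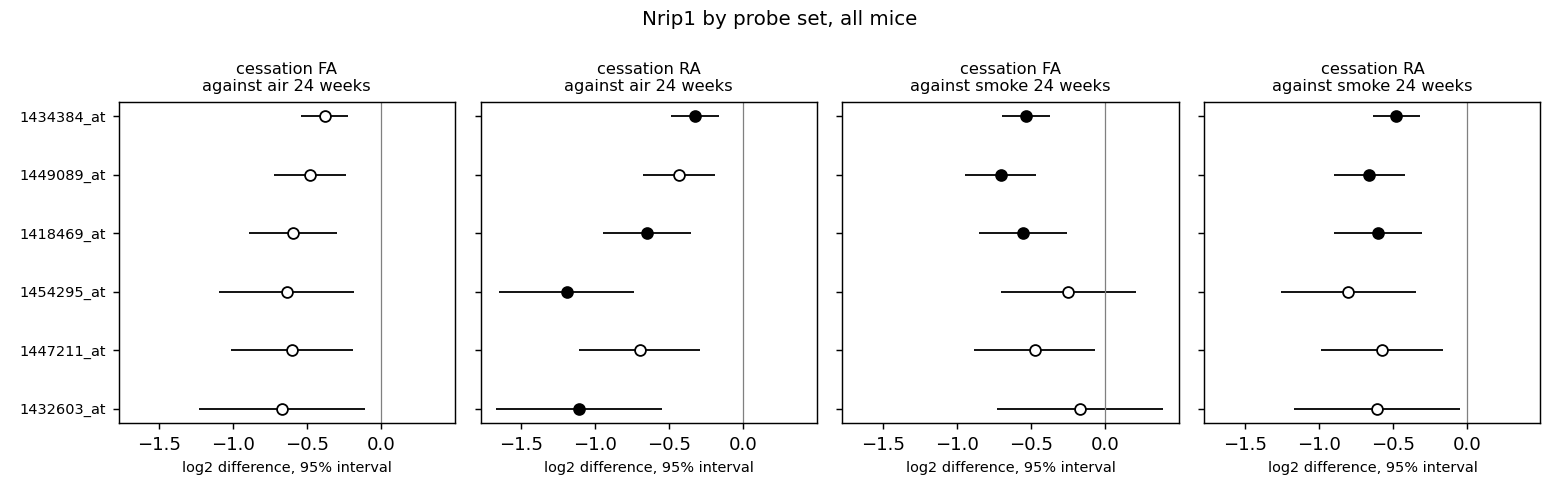
Difference of log2 levels for each of the 6 Nrip1 probe sets (rows) in 4 cessation comparisons, with 95% intervals; filled symbols passed adjusted p under 0.05 among all probe sets. All lie below 0, by 0.17 at the least and 1.19 at the most.

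Genes of the circadian clock moved beside Nrip1. Of 13 clock genes, 1 was called higher for FA against air (Arntl at 0.73, adjusted p = 0.039), where 0.081% of all genes were called. For RA against air 4 were called higher, with Npas2 at 1.80 and Arntl at 1.20, and 6 lower, with Per1 at -1.93 and Per2 at -1.58, where 1.76% of all genes were called. For FA against 24-week smoke 2 were called higher, Nr1d1 at 1.41 and Clock at 0.47, and 1 lower, Per2 at -0.74 (3.55% of all genes called). For RA against 24-week smoke 4 were called higher, with Nr1d1 at 1.79 and Npas2 at 1.76, and 3 lower, with Per2 at -1.62 and Per1 at -1.24 (2.34% of all genes called). For FA against 12-week smoke 3 were called higher and 2 lower, Per2 at -1.04 among them (0.34% of all genes called). For 24-week smoke against air 2 were called lower, Nr1d1 at -1.13 and Dbp at -0.70 (0.47% of all genes called). These calls are with all mice, and clock values without the Glycam1 arrays are not given here. Such arrays make up 3 of 6 in 24-week smoke and 3 of 6 in RA. The mean of the 13 clock genes ran between 9.03 and 9.90 in 24-week smoke mice, with a median of 9.79. The labels give no hour of sampling, and the part of these genes in the Nrip1 result was not tested.

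The coactivator Ppargc1a was not called in any comparison with all mice, and 0 of the 8 genes were called for smoke against air at 2, 12 or 24 weeks (0%, 0.0081% and 0.47% of all genes called). Its log2 levels in the 24-week smoke group were 9.40 at the lowest, 11.15 at the median and 11.65 at the highest. They were 10.77, 10.99 and 11.11 in FA mice and 10.72, 10.92 and 11.43 in 24-week air mice. The smoke group was the widest, with an SD of 0.81 against 0.13 in FA mice and 0.29 in air mice, and its 3 lowest mice were the 3 with Glycam1 arrays.

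The Ppargc1a difference between FA and 24-week smoke depended on those arrays. With all mice it was 0.00 (adjusted p = 1). Without Glycam1 arrays Ppargc1a was 10.95 ± 0.13 in 5 FA mice and 11.46 ± 0.23 in 3 smoke mice (SD), a difference of -0.52 ± 0.12 (SE; adjusted p = 0.015; exact permutation p = 0.018), in a comparison that called 1.89% of genes. All 5 FA mice then lay below all 3 smoke mice, as for 6.19% of genes, and 3 of the 5 Ppargc1a probe sets were called, at -0.55, -0.52 and -0.49, against 0.844% of all probe sets. In the same mice smoke minus air at 24 weeks was 0.41 ± 0.12 (adjusted p = 0.07), with 2 of 3 smoke mice above every air mouse, against -0.02 with all mice. RA against smoke was -0.24 (adjusted p = 0.33) and RA against FA was 0.28 (adjusted p = 0.57). A group of 3 mice stands behind each of these values, so they say little about the 24-week smoke group as a whole.

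Ppargc1a differed between times in air without passing the test. All 6 mice at 12 weeks, at 11.12 to 11.43, lay above all 6 at 2 weeks, at 10.82 to 11.07, as 0.81% of genes did in that direction. The SD was 0.11 at 12 weeks and 0.10 at 2 weeks. Over all 9 groups, on which the SE rests, the within-group SD was 0.32, and 0.16 without Glycam1 arrays. The difference was 0.29 ± 0.18 (SE; adjusted p = 0.98; exact permutation p = 0.0022), and 0.26 without Glycam1 arrays (adjusted p = 0.17). None of the 8 genes was called for 12-week or 24-week against 2-week air, where 0.0081% and 0.219% of genes were.

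Ppargc1b, the second coactivator, was lower in smoke than in air on average at each time, with no call. After 2 weeks its log2 levels were 8.57, 8.68 and 8.75 in smoke mice and 8.77, 8.86 and 9.04 in air mice (lowest, median, highest), so that the groups did not overlap, as for 0.186% of genes in that direction. The SD was 0.07 in these smoke mice and 0.09 in these air mice, against a within-group SD of 0.25 over all 9 groups. The difference was -0.20 ± 0.14 (SE; adjusted p = 1; exact permutation p = 0.0022), and -0.22 without Glycam1 arrays (adjusted p = 0.95). It was -0.18 at 12 weeks and -0.28 at 24 weeks (adjusted p = 0.22), and without Glycam1 arrays -0.07 and 0.01. The average over the 3 times was -0.22 ± 0.08 (adjusted p = 0.46), and -0.10 without those arrays. FA mice were 0.40 above 24-week smoke mice (adjusted p = 0.081), and 0.09 above them without Glycam1 arrays.

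**Figure D3:**
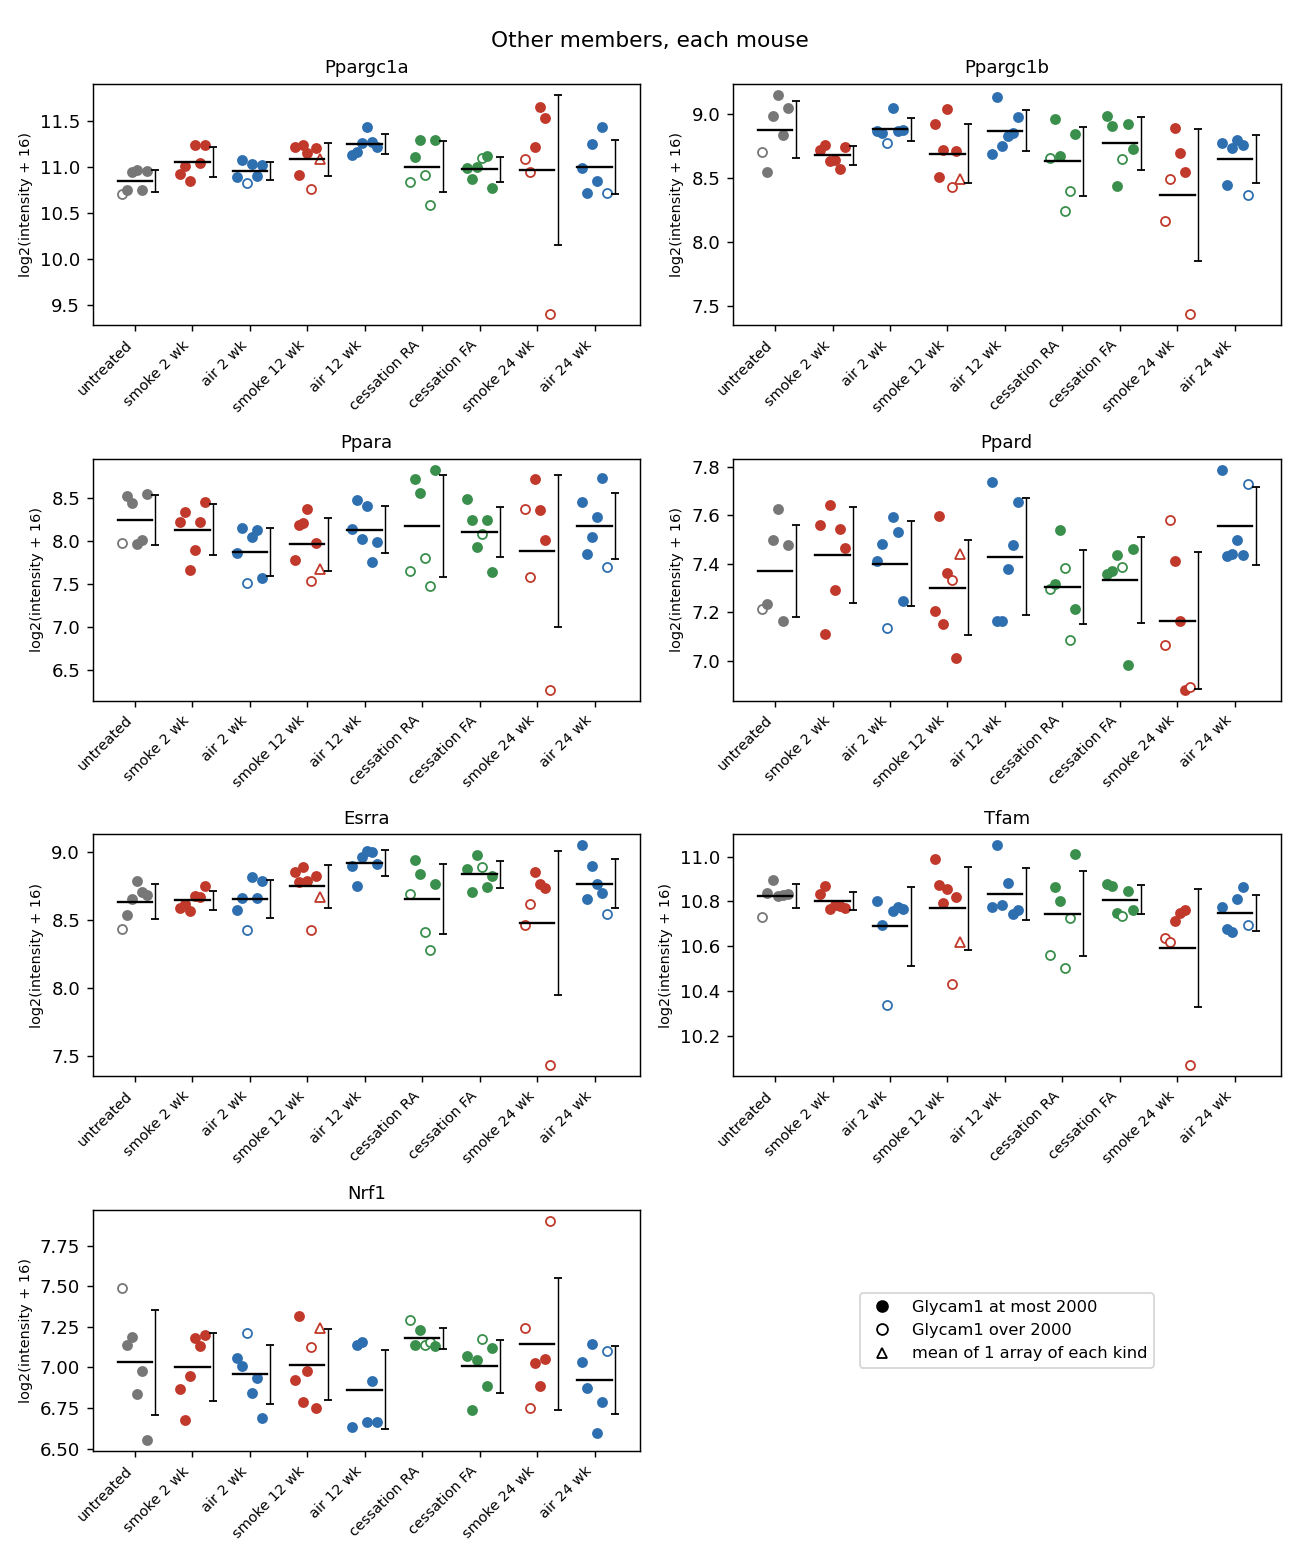
Log2 level (vertical axis, log2(intensity + 16)) of the genes in each mouse by group, one panel a gene. Points are mice, open where the array had Glycam1 over 2000 intensity units; bars are the mean and SD. In every panel the 24-week smoke group is the widest. Its SD is 0.81 for Ppargc1a, 0.51 for Ppargc1b, 0.88 for Ppara and 0.28 for Ppard. It is 0.53 for Esrra, 0.26 for Tfam and 0.41 for Nrf1.

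Among the receptors, Ppard came nearest to a call for smoke. Its log2 levels at 24 weeks were 6.88, 7.11 and 7.58 in smoke mice and 7.43, 7.47 and 7.79 in air mice (lowest, median, highest), and 5 of 6 smoke mice lay below every air mouse. The difference was -0.39 ± 0.12 (SE; adjusted p = 0.07; exact permutation p = 0.024). It was called when smoke replicate 2 (-0.47, adjusted p = 0.028) or 3 (-0.44, adjusted p = 0.036) was left out, and was -0.37 without Glycam1 arrays (adjusted p = 0.15). At 2 and 12 weeks it was 0.04 and -0.13. FA mice were 0.22 below 24-week air mice (adjusted p = 0.73) and RA mice 0.25 below them (adjusted p = 0.31), so Ppard had its highest mean in 24-week air, at 7.55 ± 0.16, and its lowest in 24-week smoke, at 7.17 ± 0.28 (SD, n = 6 each). The second Ppard probe set was below the filter and did not follow this one (r = -0.04).

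Ppara, the other PPAR, was not called and varied most between mice, with a within-group SD of 0.45, and of 0.28 without Glycam1 arrays. Smoke minus air was 0.26 at 2 weeks, -0.17 at 12 weeks and -0.29 at 24 weeks (adjusted p = 1, 1 and 0.45), and the last was 0.09 without Glycam1 arrays. With all mice RA minus FA was 0.07 ± 0.25 (SE; adjusted p = 0.98), with 3 of 6 RA mice above every FA mouse. Without those arrays RA minus FA was 0.59 ± 0.20 (SE; adjusted p = 0.42), with all 3 RA mice left above all 5 FA mice, as for 2.07% of genes. Against untreated mice the 2-week air group was at -0.37 (adjusted p = 0.88), and none of the 8 genes was called there (0.518% of all genes called).

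Esrra, whose product ERR alpha is a partner of PGC-1 alpha, was not called and averaged 8.48 ± 0.53 in 24-week smoke and 8.77 ± 0.18 in 24-week air (SD, n = 6 each), a difference of -0.29 (adjusted p = 0.16) that was -0.03 without Glycam1 arrays. FA mice, at 8.83 ± 0.10, were 0.36 above 24-week smoke mice (adjusted p = 0.085), and 0.04 above them without those arrays. In air, 12-week mice were 0.27 above 2-week mice (adjusted p = 0.77), with 5 of 6 above all of them, and 0.22 above without Glycam1 arrays (adjusted p = 0.062). With all mice Ppargc1a and Esrra both had their highest group mean in 12-week air, at 11.24 and 8.92. Without Glycam1 arrays the highest mean of Ppargc1a was in 24-week smoke, at 11.46 in 3 mice, and that of Esrra stayed in 12-week air. The Esrra values rest on its main probe set. Its second probe set, which also passed the filter, did not follow that one over the 44 mice (r = -0.11).

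Tfam was the steadiest of the genes beside Nrip1, with a within-group SD of 0.15, and of 0.07 without Glycam1 arrays. With all mice its group means spanned 0.24, between 10.59 in 24-week smoke and 10.83 in 12-week air. Smoke minus air was 0.11 at 2 weeks, -0.06 at 12 weeks and -0.16 at 24 weeks (adjusted p = 0.25 for the last), and -0.02 at 24 weeks without Glycam1 arrays. FA mice were 0.21 above 24-week smoke mice (adjusted p = 0.11), and 0.08 above without those arrays. These values rest on the main probe set. The second Tfam probe set, at a mean log2 level of 10.49, did not follow it over the 44 mice (r = 0.04).

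Nrf1 was higher on average in smoke at each time, with no call. Smoke minus air was 0.04, 0.16 and 0.22 at 2, 12 and 24 weeks (adjusted p = 1, 1 and 0.3), and RA mice, at 7.18 ± 0.06, were 0.26 above 24-week air mice, at 6.92 ± 0.21 (SD, n = 6 each; adjusted p = 0.4; exact permutation p = 0.0087). Its 24-week smoke difference was 0.10 without Glycam1 arrays. Over 17 processing settings that difference lay between -0.11 and 0.26, and it was above 0 in 16 of them. The 4 Nrf1 probe sets correlated at -0.07 to 0.36, and the mean of the main one was at the 57.7th percentile of all probe sets.

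**Figure D4:**
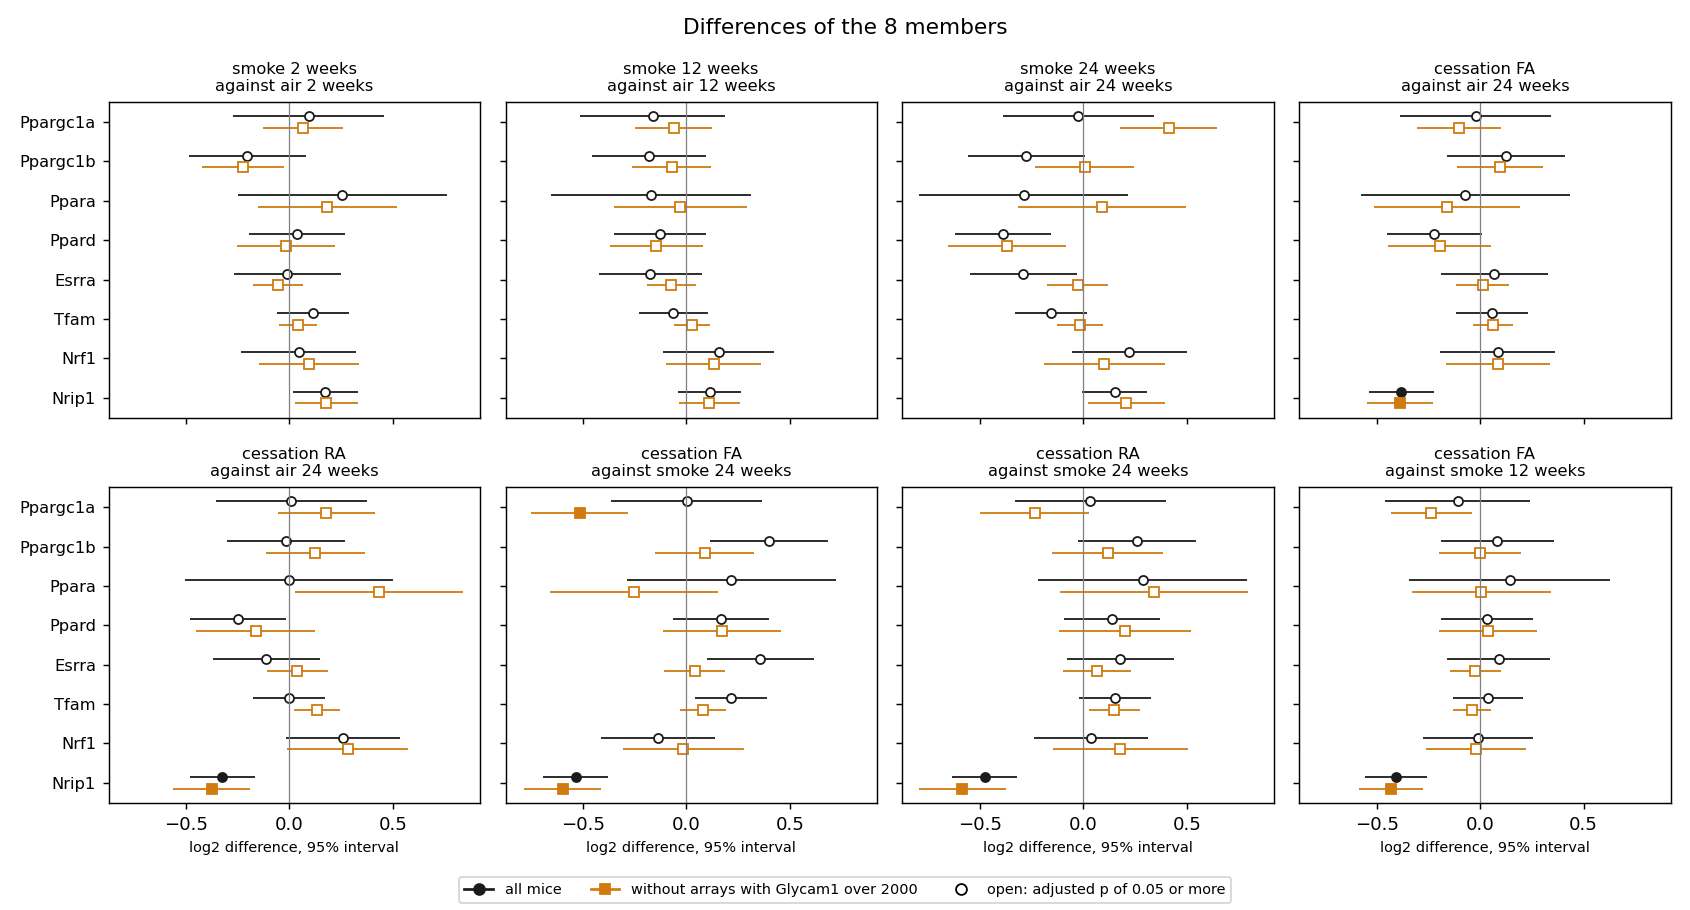
Difference of log2 levels with its 95% interval for each gene (rows) in 8 comparisons. Black circles are all mice and orange squares leave out the Glycam1 arrays; filled symbols passed adjusted p under 0.05. Nrip1 alone is filled in black, in the 5 cessation comparisons, and Ppargc1a is filled in orange for FA against 24-week smoke, at -0.52.

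Arrays with high Glycam1 carried lower levels of most of these genes. In the 7 groups that hold such arrays, they were below the other arrays of their group in 7 groups for Ppargc1b (median difference -0.33), Ppara (-0.57) and Tfam (-0.29), and in 6 groups for Ppargc1a (-0.33) and Esrra (-0.27). They were above the others in all 7 groups for Nrf1 (0.21), while Ppard (0.03) and Nrip1 (0.13) went both ways. The mouse run on 2 arrays had Glycam1 over the limit on 1 of its arrays, which read Ppargc1a at 10.79 against 11.38 on the other, Ppargc1b at 8.09 against 8.89, Ppara at 7.25 against 8.10 and Nrip1 at 11.92 against 11.94. The mean of the lymphocyte markers measured, 9 of 11 of them above the filter, ran between 4.98 and 11.11 in 24-week smoke mice and between 4.99 and 9.17 in 24-week air mice. Endothelial markers were below 0 in 8 of 8 for 24-week smoke against air (median -0.29), and slow fibre markers in 9 of 9 (median -0.47, and -0.61 without Glycam1 arrays). Their part in the differences above was not tested.

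**Figure D5:**
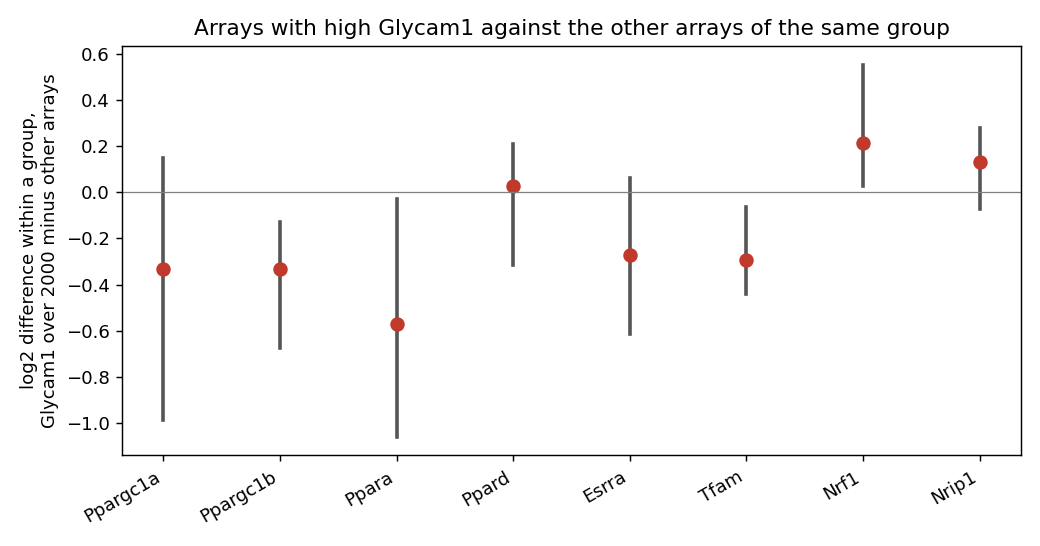
Difference of log2 levels between arrays with Glycam1 over 2000 intensity units and the other arrays of the same group, for each gene; points are the median and lines the range over the 7 groups. Ppara lies lowest, with a median of -0.57, and Nrf1 highest, with 0.21.

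The genes whose levels ran most like Nrip1 over the 44 mice, of 12350 others, were Maco1 (r = 0.81), Wee1 (0.79) and Noct (0.78), and within groups these values were 0.68, 0.51 and 0.42. For Ppargc1a they were Kitl (0.71), P4ha2 (0.70) and Cast (0.69), and for Ppargc1b Kcnj8 (0.70), P2ry2 (0.63) and Hdhd5 (0.62). Lrrc52 (0.83), Zdhhc23 (0.81) and Khdrbs3 (0.80) ran with Ppara, and Morn1, Nxn and Mcat with Ppard (0.63 each). Sirt5, a mitochondrial deacylase, led for Esrra (0.75), before Mtfp1 and Mrpl55 (0.72 each). Prdm2 and Mrps31 (0.74 each) and Phb2 (0.73) led for Tfam, and Zfyve1 (0.53), Ppp1r14bl (0.51) and Oat (0.49) for Nrf1. Between the genes themselves, Ppargc1a and Esrra correlated at 0.79 over 55 mice and 0.43 over 44, Ppara and Tfam at 0.73 and 0.40, and Ppargc1b and Esrra at 0.70 and 0.13. Ppargc1b and Nrip1 were at -0.31 and -0.46. These are descriptions over mice that share groups and arrays of 1 kind, with each gene read from its main probe set alone.

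The wider pathway was read from 7 lists of related genes. For 24-week smoke against air none of their members was called, where 0.47% of all genes were called. The 33 measured PPAR and fatty acid oxidation targets had 7 above 0 and a median of -0.18, where the median over all genes was -0.03, and without Glycam1 arrays again 7 above 0 and a median of -0.14. Their lowest p belonged to Acadl, an acyl-CoA dehydrogenase (-0.32, adjusted p = 0.057), Cpt1a, which admits fatty acids to mitochondria (0.93, 0.059), and Acads (-0.55, 0.068). The 25 respiratory chain genes had 4 above 0 (median -0.08), the 12 muscle targets of PGC-1 alpha 3 (median -0.16), the 22 upstream regulators 5 (median -0.08), the 16 relatives and partners 4 (median -0.11), the 16 genes of coactivator and corepressor complexes 7 (median -0.03) and the 15 of mitochondrial gene expression 10 (median 0.06). After 2 weeks of smoke 25 of the 33 fatty acid oxidation targets were above 0 (median 0.08 against -0.02 over all genes) with none called (0% of all genes called). Without Glycam1 arrays 30 of 33 were above 0.

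Of the 139 related genes tested in the 7 lists, 4 (2.88%) were called for FA against 24-week smoke, 3 (2.16%) for RA against 24-week smoke and 2 (1.44%) for RA against 24-week air, where 3.55%, 2.34% and 1.76% of all genes were called. None was called for FA against 24-week air or 12-week smoke, where 0.081% and 0.34% of all genes were called. For FA against 24-week smoke, Pprc1, the third PGC-1 family member, fell by 0.30 ± 0.09 (SE, adjusted p = 0.041) and Mterf1a, a mitochondrial transcription terminator, fell by 0.55 ± 0.15 (0.033). Lpin1, a coactivator of PPAR alpha, rose by 0.28 ± 0.08 (0.044) and Crtc3, a CREB coactivator, rose by 0.37 ± 0.11 (0.04). For RA against 24-week smoke, Pprc1 fell by 0.30 (0.049), Ucp3, a mitochondrial carrier, fell by 0.99 ± 0.27 (0.038) and Fnip1, a partner of folliculin, rose by 0.23 ± 0.06 (0.02). For RA against 24-week air, Gps2, a subunit of the NCoR complex, fell by 0.26 ± 0.07 (0.023) and Fnip1 rose by 0.23 (0.028), with all 6 RA mice above every air mouse, as for 0.656% of genes. The 7 calls against 24-week smoke were lost without the Glycam1 arrays. Those of Fnip1 (0.30, adjusted p = 0.0016) and Gps2 (-0.30, 0.019) for RA against air were not, and Kcnk1 (-1.06, 0.049) and Adgrg1 (-0.36, 0.039), of the PGC-1 alpha muscle targets, were called lower there. Without those arrays Cpt1a (-0.96, 0.019) was called lower and Esrrg (0.98, 0.025), Fabp3 (0.37, 0.026), Hadha (0.38, 0.04) and Crtc3 (0.33, 0.044) higher for RA against 24-week smoke, on 3 mice a group. These 5 calls are 3.6% of the 139 genes, where 3.28% of all genes were called. The 4 calls for RA against air without those arrays are 2.88% of them, where 3.97% of all genes were called. Neither share stands far from that of all genes.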

How the data were processed

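RNA from the muscles was amplified with the NuGEN Ovation system and labelled with biotin, per the labels' protocols. The authors deposited intensity values on a linear scale for 45037 probe sets; the summarising and normalising steps are not given in the sources used here. Intensities ran between -20.0 and 15890, and 0.46% were below 0. Values were floored at -15 (5 of 2522072) and taken as log2(value + 16). Of the probe sets, 34945 had 1 symbol, 932 several and 9160 none; no column was left unused (0). Each gene was represented by its brightest probe set on average, if above the 40th percentile (log2 level 5.71), which left 12351 genes, all 8 members among them; 23 of their 25 probe sets passed. limma 3.58.1 in R 4.3.3 fitted 9 groups in 1 model (46 residual degrees of freedom), with 14 comparisons, Benjamini-Hochberg adjustment over all genes and calls at adjusted p under 0.05. Single values were compared by two-sided exact permutation. The fit was tested on simulated data. Promoters come from RefSeq (GRCm38.p6).

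The labels call the mice of a group separate animals, 6 chosen at random. All 8 members were named in each comparison used, related genes where they passed the test, with up to 3 of lowest p per list otherwise, and the 3 genes most like each member. The members and lists were chosen with earlier results of these data known. Alternatives were another filter, pseudocount, probe set rule, normalisation, moderation, array weights, samples in the fit, threshold, 1 array of the mouse run on 2 arrays, and leaving out arrays or mice; leaving out probe sets of shared sequence was added after seeing the data. Array identifiers and the number in the titles served as batch checks.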

Additional observations from a re-analysis of the deposited data

Results flagged for a closer look

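Each of the 8 genes was looked at in each of the 9 groups for a mouse that stood apart from its group, in 72 tests of the gap to the nearest mouse over the range of the group (Dixon), of which about 1 in 20 would be set off by chance. There were 6 such values, from 4 mice, and 4 of the 6 came from arrays with Glycam1 over 2000 intensity units. In 24-week smoke, replicate 6 stood low in Ppargc1a (log2 level 9.40), Esrra (7.43) and Tfam (10.07). In 2-week air, replicate 3 stood low in Tfam (10.34) and replicate 4 stood high in Ppargc1b (9.04). In the FA arm, replicate 5 stood low in Ppard (6.98).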

How the results depend on the processing

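No paired analysis was possible because the replicate numbers only name the mice and the labels tie no mouse of a group to one of another. Over 17 processing settings the Nrip1 difference lay between -0.56 and -0.37 for FA against air (called in 12), between -0.74 and -0.30 for RA against air (16), between -0.62 and -0.45 for FA against 24-week smoke (16) and for RA against 24-week smoke (16), and between -0.47 and -0.40 for FA against 12-week smoke (16). The 1 call for FA against air became 0 with no filter (adjusted p = 0.06), a filter at the 20th percentile (0.051), all probe sets tested (0.085), the mean of probe sets (-0.56, 0.055) and only the groups compared (0.25). The mean of probe sets also gave 0 calls for FA against 12-week smoke (-0.45, 0.13). Only the groups compared gave 0 for RA against air (0.11), FA against 24-week smoke (0.16) and RA against 24-week smoke (0.2). Those fits have fewer mice and take the spread of the groups compared alone. The SD of Nrip1 was 0.20 in 24-week air, 0.19 in 24-week smoke, 0.10 in FA mice and 0.12 in RA mice. Over all 9 groups the within-group SD was 0.13. The part of each in the lost calls was not tested. Array weights gave 1 call for 24-week smoke against air, where Ppargc1a turned to 0.39 (adjusted p = 0.042), 1 for smoke against air on average (Nrip1 0.17, 0.032), 2 for FA against 24-week smoke, where Ppargc1a turned to -0.48 (0.0076), and 1 for 12-week against 2-week air (Esrra 0.27, 0.019). FA against 24-week smoke also had 2 calls without the Glycam1 arrays (Ppargc1a -0.52, 0.015), without arrays outside the main run of identifiers (Esrra 0.41, 0.047) and with the number in the title as a covariate (Ppargc1b 0.44, 0.05), and 3 at adjusted p under 0.1, a threshold that gave 1 for 24-week smoke against air (Ppard). Leaving out each mouse gave 0 to 1 calls for FA against air, for RA against air and for 24-week smoke against air, and 1 to 3 for FA against 24-week smoke, where Ppargc1b (0.44 to 0.50) and Esrra (0.41 to 0.43) were called without smoke replicate 3, 4 or 5. Smoke replicates 3, 4 and 5 are the 24-week smoke mice without Glycam1 arrays, and replicate 5 is outside the main run of identifiers. Without the Glycam1 arrays FA minus 24-week smoke was 0.09 for Ppargc1b and 0.04 for Esrra, neither called. The share of all genes called is not given for array weights, the covariate, the identifier run, the 0.1 threshold or mice left out. Under those settings an added call cannot be told from more calls over all genes. The cause of the changes across these settings was not tested. Among the main probe sets of the genes described here, those of Nrf1 and Ppard had the lowest mean log2 levels, at 7.02 and 7.37. Both means were above the filter, at 5.71, and the part of intensity in these results was not tested.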

Other observations

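Targets of the PPARs were called between air groups and between air and untreated mice. For 24-week against 2-week air, 32 of the 33 measured PPAR and fatty acid oxidation targets were above 0, with a median of 0.20, where the median over all genes was 0.03. With all mice 1 was called higher, Pdk4, the kinase that shuts off pyruvate oxidation (0.67 ± 0.14 SE, adjusted p = 0.018), where 0.219% of genes were called. Without the Glycam1 arrays all 33 were above 0 and 7 were called higher: Cd36 (0.36), Acaa2 (0.28), Acadvl (0.27), Lpl (0.24), Acadm (0.20), Decr1 (0.13) and Pdk4 (0.62), where 2.71% of genes were called. The 9 slow fibre markers were all above 0 in the comparison with all mice, with a median of 0.48, and their part in it was not tested.

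For 2-week air against untreated mice, with all mice, 3 of 33 were above 0, with a median of -0.17 against 0.01 over all genes, and Plin5, a lipid droplet protein, fell by 1.49 ± 0.32 (SE, adjusted p = 0.011) and Pdk4 fell by 0.73 ± 0.14 (0.0034), where 0.518% of genes were called. All 6 air mice lay below every untreated mouse for Plin5, as for 0.858% of genes. Without the Glycam1 arrays 7 were called lower, Plin5 (-1.40), Acot2 (-0.61), Mlycd (-0.51), Fabp3 (-0.34), Acaa2 (-0.29), Decr1 (-0.17) and Pdk4 (-0.67), where 1.91% of genes were called. None of the 9 slow fibre markers was above 0 (median -0.26), and their part was not tested. Both comparisons use the 2-week air mice. Of the 8 regulators none was called in either, and Ppargc1b was at -0.23 for 24-week against 2-week air (adjusted p = 0.53).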
